A study of Mus musculus with 12 samples.

Results

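The genes described here are the erythropoietin (Epo) receptor gene Epor, the genes for its kinase (Jak2) and for the 2 STAT5 transcription factors (Stat5a and Stat5b), and 6 genes that cytokine signals through STAT proteins are known to induce: Cish, Socs1, Socs2, Socs3, Pim1 and Osm. They were chosen by name, as 10 of the 24453 genes in the deposited expression table, and all 10 had a row in it. The first 4 are called receptor and kinase genes below, and the other 6 induced genes.

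The study asked how injected apotransferrin (apoTf, transferrin with no iron bound) acts on erythroid precursors of β-thalassemic mice. Pro-erythroblasts (Pro-E), the earliest recognizable red cell precursors, were sorted from bone marrow, and their polyadenylated RNA was sequenced in 12 libraries, 3 in each of 4 groups, with 2–3 mice pooled in each library. The groups were PBS-injected WT mice (WT), PBS-injected Hbb th1/th1 mice (β-thalassemic), Hbb th1/th1 mice injected with human apoTf (apoTf-treated β-thalassemic) and WT mice injected with human apoTf (apoTf-treated WT). Hbb th1/th1 mice lack an adult β-globin gene on both chromosomes and serve as a model of β-thalassemia intermedia. ApoTf was given at 10 mg per injection, 400 mg/kg per day, for 20 days, and cells were taken 3 days after the last injection. All 4 groups carry the strain label C57BL6 and an age label of 5 months, while the study's methods describe a mixed background and a younger age.

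The genotype tag of each library is the opposite of the genotype in its title, and libraries were grouped by title. The adult β-globin gene Hbb-bs was at 714 to 1784 FPKM (read density in exons, scaled for transcript length and for depth) in WT and 131 to 172 FPKM in β-thalassemic libraries grouped in this way. The labels also describe, for every library, a blood withdrawal shortly before the mice were killed. Whether these mice were bled is not clear from the sources used here, and its part in the results was not tested. Of 12 erythroid marker genes, 12 had a mean of at least 1 FPKM in every group. Of 5 T cell markers measured, 1 had a mean of at least 1 FPKM in each group, their sum ran from 0.823 to 2.47 FPKM per library, and Cd3e was at 0 in all 12. The libraries were normalized to 33500000 to 51900000 reads, as derived from the spacing of low FPKM values. WT replicate 1 was the shallowest and the least like the others: its Spearman correlation over genes with the other libraries had a median of 0.867, against 0.982 to 0.990 for each of the other 11. The gene of the transferrin receptor, Tfrc, was at 77.3 FPKM in it and at 295 to 494 FPKM elsewhere. Its value for the ribosomal RNA precursor Rn45s was 31177 FPKM, against 1609 to 6116 FPKM elsewhere, and its part in the results was not tested.

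When Epo binds its receptor on an erythroid precursor, the kinase JAK2 held at the receptor's cytoplasmic tail phosphorylates the tail and the STAT5 proteins that dock on it. Phosphorylated STAT5A and STAT5B pair, enter the nucleus and bind promoters and enhancers of genes that keep the precursor alive and dividing. Among these genes are inhibitors of the same pathway: CISH and the SOCS proteins bind the receptor or the kinase and dampen the signal, so that their RNA is widely read as a sign of recent signalling. PIM1 is a serine/threonine kinase of cell survival, and OSM (oncostatin M) is a secreted cytokine of the interleukin-6 family.

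STAT5 dimers bind the palindrome TTCNNNGAA, in which N is any base and which reads the same on both strands. This motif was searched in windows from 250 bases before to 50 bases after gene starts in RefSeq (build GRCm38.p6), in which 8 of the 10 genes matched with 11 windows. Osm and Socs2 were not matched. The motif was in the Cish window, with 2 copies, and in the Socs3 window, with 1 copy, and in none of the other 9. Of all 32851 windows in the table, 8.30% held the motif and 0.457% held at least 2 copies. The Cish window (chr9:107296409-107296708, + strand) and the Socs3 window (chr11:117969317-117969616, − strand) are shown because they are the 2 that hold the motif, each 5′ to 3′ on the strand of its gene and with the motif in capitals.
Cish: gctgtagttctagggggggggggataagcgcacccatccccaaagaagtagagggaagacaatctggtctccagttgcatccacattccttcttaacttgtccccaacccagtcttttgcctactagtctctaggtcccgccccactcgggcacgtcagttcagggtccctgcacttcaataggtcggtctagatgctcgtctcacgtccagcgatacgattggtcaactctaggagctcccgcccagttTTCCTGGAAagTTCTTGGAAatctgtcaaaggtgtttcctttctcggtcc
Socs3: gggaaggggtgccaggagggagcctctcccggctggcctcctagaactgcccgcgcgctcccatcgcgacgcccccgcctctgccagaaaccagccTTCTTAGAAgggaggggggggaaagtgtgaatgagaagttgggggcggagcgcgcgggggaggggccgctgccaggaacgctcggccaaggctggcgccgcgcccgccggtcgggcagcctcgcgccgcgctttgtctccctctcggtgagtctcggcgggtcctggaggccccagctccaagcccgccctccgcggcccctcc
The first bases of the Cish copies, TTCCTGGAA and TTCTTGGAA, stand at positions 1 and 12 counted from the RefSeq gene start, and that of the Socs3 copy, TTCTTAGAA, at position -154. Both windows lie within the gene as GENCODE draws it, since its longest transcripts start further upstream. Binding of STAT5 was not measured in these libraries, and a match describes the sequence only.

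The receptor and kinase genes were abundant in Pro-E of every group, and the induced genes spanned a much wider range. By mean FPKM, a scale per length of transcript on which genes can be ranked, Epor was the highest of the 10 genes in all 4 groups. In WT Pro-E it was followed by Jak2, Stat5a, Stat5b, Pim1, Osm, Cish, Socs1, Socs3 and Socs2. The libraries of Jak2, Stat5a, Stat5b and Pim1 overlapped from each to the next in that order, as did those of Osm and Cish and those of the last 3, whereas Epor stood clear of Jak2, Pim1 of Osm, and Cish of Socs1. In β-thalassemic Pro-E, Pim1 stood above Stat5a and Stat5b, and Socs2 above Socs1 and Socs3. In that group the libraries of Pim1 overlapped those of Jak2 and Stat5a, and those of Socs2 did not overlap those of Socs1.

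**Figure D1:**
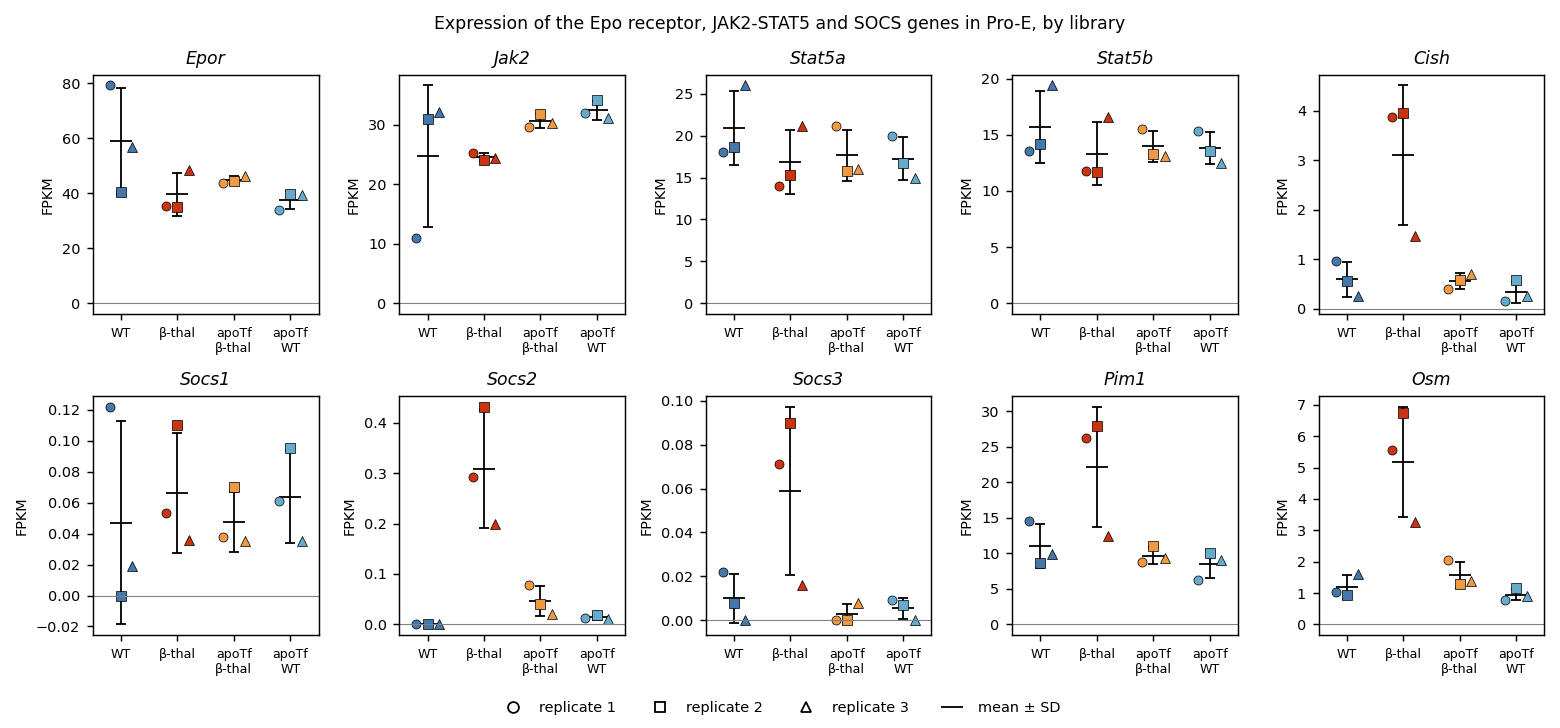
FPKM of the 10 genes (one panel each, linear axes) in the 12 libraries, by group, with circles, squares and triangles for replicates 1, 2 and 3 and bars for mean ± SD of 3 libraries. The 3 β-thalassemic libraries stand above all others for Cish, Socs2 and Osm, and the groups overlap for Stat5a, Stat5b and Socs1.

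Among the receptor and kinase genes, 0 of 4 passed the limma test of β-thalassemic against WT Pro-E, where 0.259% of all genes tested did. Epor (chromosome 9, 21958897 to 21963506, − strand, GRCm38) was at 79.2, 40.6 and 57.0 FPKM in WT and at 35.3, 35.1 and 48.5 FPKM in β-thalassemic libraries. The groups overlapped, with the highest value in WT replicate 1. The log2 fold change of FPKM plus 0.5 was -0.53 (95% interval -1.01 to -0.06, limma, adjusted p = 0.527), and it was -0.29 without WT replicate 1.

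After apoTf, Epor was at 43.8, 44.4 and 46.3 FPKM in β-thalassemic libraries, within the range of the untreated ones (log2 fold change 0.19). In apoTf-treated WT libraries it was at 33.8, 39.6 and 39.5 FPKM, below all 3 untreated WT libraries. That difference was -0.59 on the log2 scale (95% interval -1.07 to -0.11, limma, unadjusted p = 0.0186, adjusted p = 0.410). It depended on the WT libraries left out: without WT replicate 2 it was -0.83 with an adjusted p of 0.0421, and without WT replicate 1 it was -0.35.

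Jak2 (chromosome 19, 29251828 to 29313080, + strand) was at 25.3, 24.1 and 24.4 FPKM in β-thalassemic libraries. In WT it was at 11.01, 30.9 and 32.2 FPKM, so that WT replicate 1 lay far below and the other 2 WT libraries above the whole β-thalassemic group. The log2 fold change between the groups was 0.14 (95% interval -0.53 to 0.81, adjusted p = 0.808) and turned to -0.35 without WT replicate 1. In apoTf-treated β-thalassemic libraries Jak2 was at 29.7, 31.9 and 30.2 FPKM, each above every untreated one, and in apoTf-treated WT libraries at 31.9, 34.1 and 31.2 FPKM. The mean was 1.24-fold higher after apoTf in β-thalassemic Pro-E, and this did not pass (0.31 on the log2 scale, 95% interval -0.36 to 0.98, adjusted p = 1.00). Outside WT replicate 1, the 3 β-thalassemic libraries were thus the lowest of the remaining 11 for Jak2. WT replicate 1 also entered the shared spread of the fit. Without it, the change after apoTf in β-thalassemic Pro-E was still 0.31, with a 95% interval of 0.13 to 0.49 (limma, adjusted p = 0.362).

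Stat5a (chromosome 11, 100859351 to 100885169, + strand) was at 18.0, 18.6 and 26.0 FPKM in WT and at 14.0, 15.4 and 21.1 FPKM in β-thalassemic libraries. It was at 21.1, 15.8 and 16.0 FPKM after apoTf in β-thalassemic and at 20.0, 16.7 and 15.0 FPKM after apoTf in WT libraries. The 4 groups overlapped. The log2 fold changes were -0.30 between β-thalassemic and WT (95% interval -0.75 to 0.14) and 0.08 after apoTf in β-thalassemic Pro-E.

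Its neighbour Stat5b (chromosome 11, 100780731 to 100850724, − strand) encodes a closely related protein, and only reads with 1 alignment were counted for either gene. Stat5b was at 13.6, 14.2 and 19.4 FPKM in WT and at 11.8, 11.7 and 16.5 FPKM in β-thalassemic libraries. After apoTf it was at 15.5, 13.3 and 13.1 FPKM in β-thalassemic and at 15.3, 13.6 and 12.5 FPKM in WT libraries. These groups overlapped as well, with log2 fold changes of -0.23 between β-thalassemic and WT and 0.08 after apoTf in β-thalassemic Pro-E. Over the 12 libraries the log2 values of Stat5a and Stat5b had a Pearson r of 0.974, and over the 9 libraries other than the β-thalassemic ones r was 0.977.

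The induced genes showed another pattern: for Cish, Socs2 and Osm, each of the 3 β-thalassemic libraries lay above all 9 others. Among genes above 0 in at least 1 library, 0.829% did so, and among genes tested 0.839%. Within the β-thalassemic group the 6 induced genes had the same order, with replicate 2 highest and replicate 3 lowest, which for Socs1 and Socs3 rests on 2 to 11 reads. Epor, Stat5a and Stat5b were highest in replicate 3, and Jak2 was highest in replicate 1 and lowest in replicate 2. Tfrc had the order of the induced genes, at 399, 494 and 295 FPKM in replicates 1, 2 and 3. The share of all genes with this order was not computed, so it is description only. Rn45s was at 2607, 2010 and 6116 FPKM in β-thalassemic replicates 1, 2 and 3, lowest where the induced genes were highest and highest where they were lowest, and its part in the results was not tested.

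Osm (chromosome 11, 4236420 to 4241026, + strand) was at 5.55, 6.73 and 3.27 FPKM in β-thalassemic and at 1.04, 0.922 and 1.61 FPKM in WT libraries. The means were 5.18 ± 1.76 and 1.19 ± 0.368 FPKM (SD, n = 3 libraries each), and the lowest β-thalassemic library was above the highest of the other 9. Osm rose 4.35-fold in mean, by 1.72 on the log2 scale (SE 0.25, 95% interval 1.17 to 2.27, limma, adjusted p = 0.0164), and was the 1 gene of the 7 tested that passed; of all 9650 genes tested, 0.259% did so in either direction and 0.155% as higher. The other 3 genes were too low to be tested. The call rested on single libraries and on the setting: the adjusted p was 0.114 and 0.110 when β-thalassemic replicate 1 or 2 was left out, and between 0.00851 and 0.249 over all alternatives. In each of them the log2 fold change was between 1.47 and 2.01.

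After apoTf, Osm was at 2.06, 1.28 and 1.38 FPKM in β-thalassemic libraries, all below the lowest untreated one. The difference was -1.42 on the log2 scale (SE 0.25, 95% interval -1.97 to -0.87), and with an adjusted p of 0.190 it did not pass the test. Without β-thalassemic replicate 3, the library with the least Osm of its group, it was -1.69 with an adjusted p of 0.0460. In apoTf-treated WT libraries Osm was at 0.788, 1.15 and 0.915 FPKM, overlapping untreated WT.

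Cish (chromosome 9, 107296026 to 107302784, + strand), the founding member of the SOCS family and an inhibitor of signalling through STAT5, was at 3.88, 3.96 and 1.48 FPKM in β-thalassemic libraries. In WT it was at 0.962, 0.549 and 0.251 FPKM. The groups did not overlap, and the mean was 3.10 ± 1.41 against 0.587 ± 0.357 FPKM (SD, n = 3 each), 5.28-fold higher. On the log2 scale the fold change was 1.69 (SE 0.34, 95% interval 0.95 to 2.42) with an adjusted p of 0.0915, so that Cish did not pass the test with all libraries, and it was 1.93 with an adjusted p of 0.0315 without WT replicate 1. Cish was tested because its 3 β-thalassemic libraries alone reached 1 FPKM, and it drops out of the test when any of them is left out.

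After apoTf, Cish was at 0.388, 0.582 and 0.695 FPKM in β-thalassemic libraries, each lower than every untreated one and within the range of WT. The difference was -1.69 on the log2 scale (95% interval -2.43 to -0.95, adjusted p = 0.392), a 5.59-fold lower mean that did not pass the test. In apoTf-treated WT libraries Cish was at 0.148, 0.569 and 0.256 FPKM, overlapping untreated WT (log2 fold change -0.38).

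Pim1 (chromosome 17, 29490753 to 29496112, + strand) was the most abundant of the induced genes in every group. It was at 26.2, 28.0 and 12.5 FPKM in β-thalassemic and at 14.6, 8.70 and 9.90 FPKM in WT libraries. The groups overlapped through β-thalassemic replicate 3 and WT replicate 1, with means of 22.2 ± 8.47 and 11.1 ± 3.10 FPKM (SD, n = 3 each). The log2 fold change was 0.92 (95% interval 0.28 to 1.57, adjusted p = 0.527) and reached 1.29 without β-thalassemic replicate 3, with an adjusted p of 0.0951.

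After apoTf, Pim1 was at 8.73, 10.985 and 9.35 FPKM in β-thalassemic libraries, below the 3 untreated ones. The log2 fold change was -1.08 (95% interval -1.73 to -0.43, limma, unadjusted p = 0.0034, adjusted p = 1.00). In apoTf-treated WT libraries Pim1 was at 6.28, 10.1 and 9.10 FPKM, overlapping untreated WT.

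Socs1, Socs2 and Socs3 were below 1 FPKM in every library and had no place in the main test, so the whole reads behind their values were read from the FPKM. The totals over a group are given with 95% Poisson intervals that cover counting error only. Socs2 (chromosome 10, 95385362 to 95417180, − strand), an inhibitor of growth hormone and STAT5 signalling, was at 0.292, 0.432 and 0.199 FPKM in β-thalassemic libraries, which is 28, 40 and 19 reads. It was at 0 in the 3 WT libraries, none of which had a Socs2 read.

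The sum of 87 reads (69.7 to 107) in the β-thalassemic libraries was 26.4-fold higher, relative to depth, than a floor of 3 reads set for the WT group. This ratio is not a lower bound, since the WT sum of 0 reads has an upper Poisson limit of 3.69 reads. In apoTf-treated β-thalassemic libraries there were 7, 4 and 2 Socs2 reads, a level 6.66-fold (3.70 to 13.0) below that of the untreated group. In apoTf-treated WT libraries there were 1, 2 and 1 reads, 22.2-fold (8.36 to 83.2) below the β-thalassemic group. Each β-thalassemic library thus had more Socs2 than any other library, and each apoTf-treated β-thalassemic library, with 0.079, 0.041 and 0.021 FPKM, more than any WT library of either treatment, the lowest of them by less than the worth of 1 read over the highest apoTf-treated WT library at 0.019 FPKM.

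In a limma fit without the filter on low values, over 17977 genes, Socs2 passed in β-thalassemic against WT Pro-E (adjusted p = 0.0156). Its log2 fold change was 0.68, which the pseudocount of 0.5 compresses, while Osm did not pass in that fit (adjusted p = 0.0584). With Socs2 at 0 in the 3 WT libraries, that group added no spread to its standard error. The share of all genes that passed in this comparison without the filter is not given here, so the call is description only. In the same fit Socs2 did not pass in apoTf-treated against untreated β-thalassemic libraries (-0.55, adjusted p = 0.112).

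Socs3 (chromosome 11, 117966079 to 117970047, − strand), an inhibitor induced by many cytokines, gave 9, 11 and 2 reads in β-thalassemic and 2, 1 and 0 in WT libraries. The ratio of their levels was 6.69 with an interval of 2.01 to 34.9, and β-thalassemic replicate 3, at 0.016 FPKM, was below WT replicate 1 at 0.022 FPKM. After apoTf there were 0, 0 and 1 reads in β-thalassemic and 1, 1 and 0 in WT libraries. The 3 untreated β-thalassemic libraries all exceeded the treated ones, but replicate 3 by a single read.

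Socs1 (chromosome 16, 10782240 to 10785536, − strand), a strong inhibitor of JAK kinases, gave 3, 6 and 2 reads in β-thalassemic and 5, 0 and 1 in WT libraries. After apoTf there were 2, 4 and 2 reads in β-thalassemic and 3, 6 and 2 in WT libraries. The 4 groups overlapped, the ratio of β-thalassemic to WT being 1.67 with an interval of 0.567 to 5.51, and no difference in Socs1 was detectable at this depth.

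**Figure D2:**
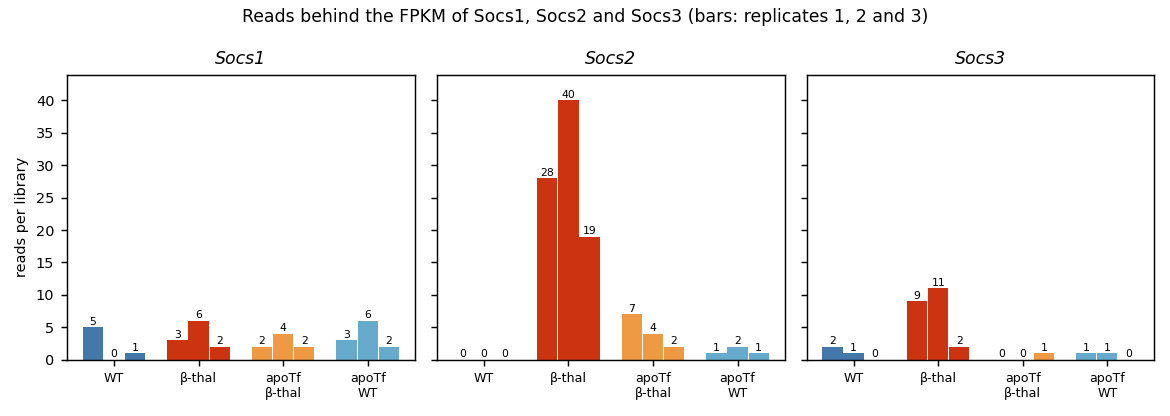
Reads per library behind the FPKM of Socs1, Socs2 and Socs3 (bars from 0, replicates 1, 2 and 3 of each group in order, with the count above each bar). Socs2 had 19 to 40 reads in β-thalassemic libraries, none in WT and 1 to 7 in the treated groups, whereas Socs1 had 0 to 6 reads in every group.

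Set side by side, the receptor and kinase genes and the induced genes had fold changes of unlike size and sign for β-thalassemic against WT Pro-E. The 4 receptor and kinase genes had a median log2 fold change of -0.27 (range -0.53 to 0.14), and Cish, Pim1 and Osm were at 1.69, 0.92 and 1.72, where the median of all 9650 genes was 0.08 and their 10th and 90th percentiles were -0.35 and 0.50. The β-thalassemic and WT groups did not overlap for Cish and Osm, both higher; of all genes tested, 3.68% were higher and 3.24% lower without overlap. Cish entered the test only through its β-thalassemic libraries, so that its direction here was set by the filter and its count lends no support to a difference of the induced genes. At an unadjusted p under 0.05 were 4 of the 7 (Epor, Cish, Pim1 and Osm) and 7.66% of all genes. A two-sided exact permutation test of 3 libraries against 3 allows no p below 0.1, which Cish and Osm reached, while Epor and Pim1 had p = 0.2.

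In apoTf-treated against untreated β-thalassemic libraries, 0 of the 7 genes passed the limma test, and 0.0311% of all genes did. An unadjusted p under 0.05 was found for 3 of them, Cish, Pim1 and Osm, and for 1.43% of all genes. The treated and untreated groups did not overlap for 4 of the 7, with Cish, Pim1 and Osm lower and Jak2 higher; of all genes tested, 2.89% were lower and 6.76% higher without overlap. The median log2 fold change was 0.14 for the receptor and kinase genes, against 0.03 for all genes. For Cish the direction was again set by the filter. The comparison shares its untreated β-thalassemic libraries with the one above, so that opposite signs in the 2 are not independent of each other.

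In apoTf-treated against untreated WT libraries, 0 of the 7 genes passed the limma test, as did 0% of all genes, and 1, Epor, had an unadjusted p under 0.05, as did 10.2% of all genes. The median log2 fold change was -0.21 for the receptor and kinase genes, against 0.10 for all genes. Cish was at -0.38, Pim1 at -0.35 and Osm at -0.21, and without WT replicate 1 they were at -0.14, -0.15 and -0.26. Epor was the only one of the 7 whose groups did not overlap, and it was lower; of all genes tested, 8.29% were lower and 2.61% higher without overlap.

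Whether apoTf acted differently in the 2 genotypes was tested as an interaction in limma, in which 0 of the 7 genes and 0% of all genes passed. At an unadjusted p under 0.05 were 3 of the 7: Osm (-1.21, 95% interval -1.99 to -0.43), Cish (-1.31, -2.35 to -0.27) and Epor (0.78, 0.11 to 1.46), beside 4.9% of all genes. An effect of apoTf on these genes that differs between β-thalassemic and WT mice was therefore not established by this test. Cish entered it only through its untreated β-thalassemic libraries, which the interaction subtracts, so its count here lends no support to such an effect.

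Relative to untreated WT Pro-E, apoTf-treated β-thalassemic Pro-E had a log2 fold change of 0.00 for Cish (95% interval -0.74 to 0.73), 0.30 for Osm (-0.25 to 0.85) and -0.15 for Pim1. Without WT replicate 1 they were 0.24, 0.24 and 0.05. In limma 0 of the 7 genes passed and 0 had an unadjusted p under 0.05, where 0.0518% and 4.15% of all genes did. The groups overlapped for each of the 7, while 4.05% of all genes were higher and 4.41% lower without overlap.

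With both genotypes on apoTf, a comparison that shares no library with that of the untreated mice, the log2 fold changes of β-thalassemic against WT Pro-E were 0.51 for Osm (95% interval -0.04 to 1.06), 0.38 for Cish, 0.20 for Pim1, 0.25 for Epor and -0.08 for Jak2. In limma 0 of the 7 genes passed and 0 had an unadjusted p under 0.05, where 0.0415% and 1.41% of all genes did. Osm and Epor were higher without overlap, as were 8.88% of all genes tested, and 2.74% were lower. The replicate numbers of these 2 groups were taken as pairing their libraries. This was read from correlations in these same libraries, and no label gives such a pairing. Within each of the 3 pairs Osm, Cish, Pim1 and Epor were higher and Jak2 lower in the β-thalassemic library. For Cish the gap was as little as 0.582 against 0.569 FPKM in replicate 2, and Stat5a and Stat5b changed direction between pairs. The share of all genes that keep their direction in the 3 pairs was not computed, so this agreement is description only. In a limma fit of these 6 libraries with the replicate number as a block, 0 of the 7 genes passed and 2.21% of all genes did (213, against 4 without the block). Epor (0.25, 95% interval 0.13 to 0.38, adjusted p = 0.0666) and Osm (0.51, 0.08 to 0.93, adjusted p = 0.189) then had an unadjusted p under 0.05, as did 19.8% of all genes.

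**Figure D3:**
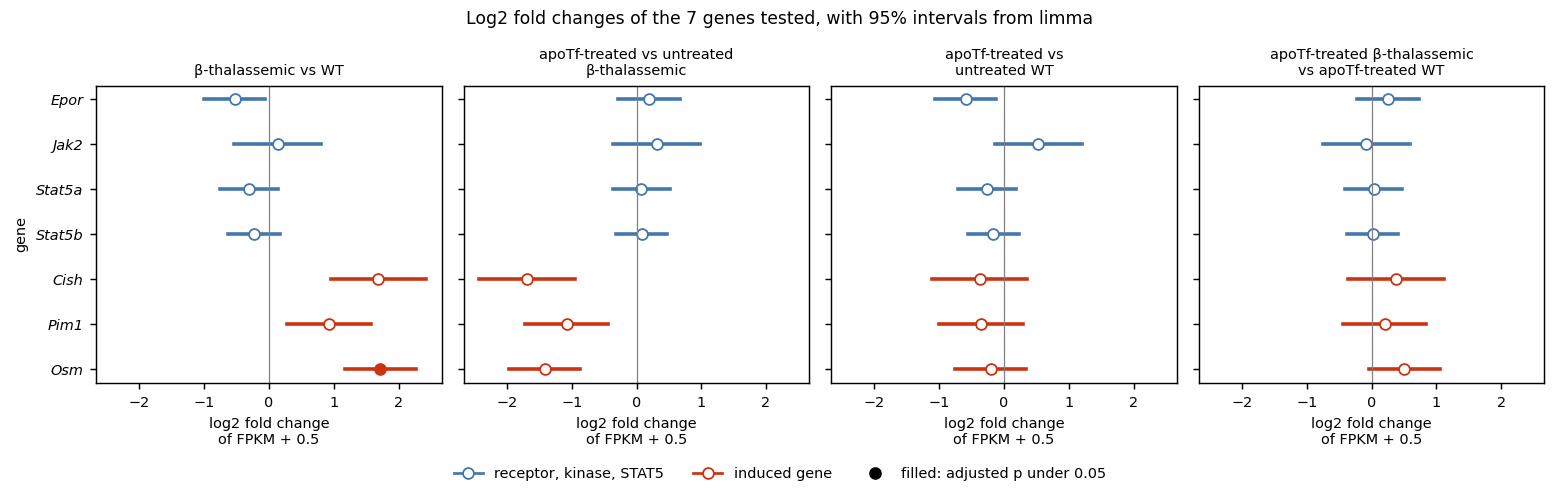
Log2 fold changes of FPKM plus 0.5 (points) with 95% limma intervals (lines) for the 7 genes tested in 4 comparisons, filled where the adjusted p was under 0.05. The 1 filled point is Osm at 1.72 in β-thalassemic against WT Pro-E, and Cish, Pim1 and Osm lie at -1.69, -1.08 and -1.42 in apoTf-treated against untreated β-thalassemic Pro-E.

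The level of an induced gene relative to that of the receptor in the same library does not depend on how that library was scaled. Cish was at 10.99%, 11.3% and 3.04% of the FPKM of Epor in β-thalassemic libraries and at 0.438% to 1.50% in the other 9. Osm was at 15.7%, 19.2% and 6.73% in β-thalassemic libraries and at 1.32% to 4.71% in the other 9. Pim1 was at 74.2%, 79.7% and 25.7%, against 17.4% to 25.5% in the other 9. By this ratio the β-thalassemic libraries stood above all others for the 3 genes, for Pim1 with replicate 3 barely so. By FPKM alone Pim1 overlapped, at 12.5 in β-thalassemic replicate 3 and 14.6 in WT replicate 1, where Epor was at 79.2. The mean of Epor was itself lower in β-thalassemic (39.6 FPKM) than in WT libraries (59.0 FPKM). Cish entered the test only through its β-thalassemic libraries. The share of all genes that stand apart by such a ratio was not computed, so the separation is description only.

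Across libraries, Cish, Pim1 and Osm varied together and Epor did not vary with them. The Pearson r of log2 values over 12 libraries was 0.954 for Cish with Pim1, 0.893 for Cish with Osm and 0.860 for Pim1 with Osm, and it was -0.180 for Epor with Cish. These correlations carry no test and rest largely on the gap between the β-thalassemic libraries and the rest. Over the other 9 libraries r was 0.784 for Cish with Pim1 (0.628 without WT replicate 1), 0.081 for Cish with Osm (0.234) and 0.189 for Pim1 with Osm (0.452). For Epor with Jak2, r was -0.672 over 12 libraries and 0.201 over the 11 without WT replicate 1. Jak2 had an r of -0.377 with Cish, -0.440 with Pim1 and -0.139 with Osm over 12 libraries. Over the 11 these were -0.862, -0.779 and -0.898. For Cish, r over 12 libraries was -0.493 with Stat5a and -0.548 with Stat5b. These values carry no test either.

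**Figure D4:**
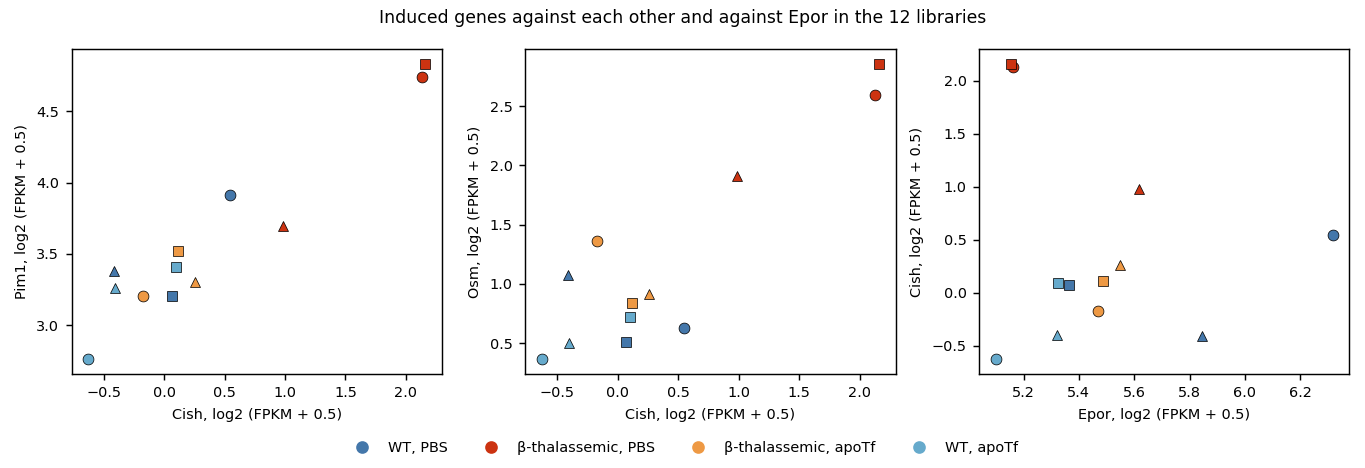
Log2 of FPKM plus 0.5 in the 12 libraries for Pim1 against Cish, Osm against Cish, and Cish against Epor, coloured by group, with circles, squares and triangles for replicates 1, 2 and 3. β-thalassemic replicates 1 and 2 lie at the upper right of the first 2 panels and replicate 3 between them and the rest, while Epor does not separate them.

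The genes whose pattern over the 12 libraries was most like that of each member were named by the highest r. For Osm these were Fam132b (r = 0.986), which encodes the iron regulator erythroferrone, Tnfrsf21 (0.980) and Podxl (0.970), and over the 9 libraries other than the β-thalassemic ones r was 0.906, 0.846 and 0.839. For Cish they were Pim1 (0.954), Lrp8 (0.937) and Fam132b (0.924), and over the 9 libraries r was 0.784, 0.544 and 0.205, or 0.628, 0.758 and 0.529 without WT replicate 1 as well. For Pim1 they were Cish, Irs2 (0.930), an adaptor of insulin and cytokine receptors, and Clcn2 (0.904).

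For Epor the most similar genes were Kcnn4 (r = 0.992), a calcium-activated potassium channel of red cells, Fcho1 (0.992) and Sppl2b (0.988). For Jak2 they were Siah1a (0.991), Zfp963 (0.989) and Pias1 (0.987), at 0.937, 0.926 and 0.908 without WT replicate 1. For Stat5a they were Stat5b (0.974), Ctsa (0.974) and G6pc3 (0.973), and for Stat5b they were Stat5a, Slc7a4 (0.957) and Ctsa (0.953).

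Of 72 other genes of the pathway and its surroundings, listed by role, 49 were tested. In β-thalassemic against WT Pro-E, 3 of them were higher and 0 lower, where 0.155% of all genes tested were higher, and in apoTf-treated against untreated β-thalassemic Pro-E 1 was lower and 0 higher, where 0.0311% of all genes passed. In the other 4 comparisons none passed. The 3 were Fam132b, Plek2 and Podxl, all in the list of 14 Epo or STAT5 response genes, of which 9 were tested. The study itself named these 3 on the same libraries, so they are no independent evidence of the list's direction. Outside the untreated β-thalassemic group, Podxl reached 1 FPKM only in apoTf-treated β-thalassemic replicate 1 (1.56 FPKM). Its direction in both comparisons was thus largely set by the filter, and its calls lend no support to a difference.

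Podxl, a sialomucin of the cell surface, was at 10.8, 23.6 and 9.86 FPKM in β-thalassemic and at 0.323, 0.318 and 0.403 FPKM in WT libraries (log2 fold change 4.06, adjusted p = 0.000141). Its level fell by 3.29 on the log2 scale after apoTf in β-thalassemic Pro-E (adjusted p = 0.00162), and it was the 1 listed gene to pass there. Both directions were largely set by the filter, through which Podxl came by its β-thalassemic libraries. Fam132b (2.16, adjusted p = 0.00716) and Plek2, which encodes the cytoskeletal regulator pleckstrin-2 (2.59, adjusted p = 0.0181), rose in β-thalassemic Pro-E, and neither passed after apoTf, with -1.79 and -1.74. Other genes of the list did not pass: Bcl2l1, which encodes the survival factor BCL-XL, averaged 5.65 FPKM in β-thalassemic and 5.89 FPKM in WT libraries, and Ccnd3, which encodes cyclin D3, averaged 122 and 156 FPKM.

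None of 20 adaptors and second kinases of the Epo receptor passed in any comparison. The smallest p for β-thalassemic against WT Pro-E was that of Gab2, a docking protein, at 2.66, 3.61 and 2.97 FPKM in β-thalassemic and 0.628, 0.716 and 1.58 FPKM in WT libraries, with no overlap (log2 fold change 1.33, adjusted p = 0.0699, and 1.16 without WT replicate 1). Gab2 was at 1.59, 1.00 and 1.00 FPKM after apoTf in β-thalassemic libraries (-1.08, adjusted p = 0.656). Next came Pik3cb, a catalytic subunit of phosphoinositide 3-kinase, at 0.59 (adjusted p = 0.513), or 0.38 without WT replicate 1. This order depended on WT replicate 1: without it, Irs2 was at 1.13 (limma, adjusted p = 0.0661). Irs2 was at 5.74, 2.21 and 3.195 FPKM in WT and at 7.86, 7.64 and 4.35 FPKM in β-thalassemic libraries. After apoTf it was at 3.075, 2.62 and 2.52 FPKM in β-thalassemic libraries, and it did not pass.

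Of the other JAK kinases and STATs, 6 of 8 were tested and none passed in any comparison, with Stat2 at -0.35 for β-thalassemic against WT Pro-E. Of 11 negative regulators outside the SOCS family, 10 were tested, likewise with no call, with Dok1 and Pias3 both at -0.46. The other SOCS genes were unlike Socs1, Socs2 and Socs3 in level: Socs4 was at 6.23, 16.1 and 15.5 FPKM in WT and at 16.2, 16.0 and 13.9 FPKM in β-thalassemic libraries, Socs6 at 1.02, 3.03 and 3.40 and at 2.98, 3.29 and 3.15 FPKM, and Socs7 had means of 5.16 and 5.08 FPKM. None of the 3 passed. WT replicate 1 was the lowest for Socs4 and Socs6, and without it their log2 fold changes were -0.04 and -0.03.

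Of 10 other cytokine receptors that use JAK2 or STAT5, only Kit, the receptor of stem cell factor, was tested, at -0.58 for β-thalassemic against WT Pro-E (adjusted p = 0.528), or -0.96 without WT replicate 1. The receptor genes for oncostatin M were near 0: Osmr was at no more than 0.009 FPKM and Il6st at no more than 0.106 FPKM in any library, whereas Osm itself reached 6.73 FPKM.

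Markers of other marrow cells were measured beside the induced genes. By the study's methods, marrow was incubated with magnetic beads against the white cell protein CD45 and stained for TER119, CD44 and CD71. The summed FPKM of 10 neutrophil markers ran from 0.865 to 7.04 in the β-thalassemic and from 2.82 to 40.0 in the WT group, and from 1.90 to 11.5 in the apoTf-treated β-thalassemic and from 2.58 to 49.8 in the apoTf-treated WT group. The summed FPKM of 10 macrophage markers ran from 2.55 to 3.03 in the β-thalassemic, from 2.32 to 4.61 in the WT, and from 2.01 to 2.92 in the apoTf-treated β-thalassemic group. Neither sum was highest in the β-thalassemic group, but the macrophage gene Cd68 was at 1.23 to 1.82 FPKM there and at 0.76 to 1.26 FPKM elsewhere, and its part in the results was not tested. The summed FPKM of 6 progenitor markers ran from 44.1 to 56.1 in the β-thalassemic and from 43.9 to 111 in the WT group. It ran from 51.1 to 78.4 in the apoTf-treated β-thalassemic and from 57.5 to 86.8 in the apoTf-treated WT group. Of these markers, Kit and Myb were lowest within WT in replicate 1. Without it their log2 fold changes for β-thalassemic against WT Pro-E were -0.96 and -0.69 (limma, adjusted p = 0.196 and 0.366). The part of progenitor content in the results was not tested. In sorted bulk samples, a change in the mix of cells and a change of RNA per cell cannot be told apart.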

How the data were processed

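STAR was used by the authors for alignment to mm10, restricted to uniquely placed reads, and HOMER for counting exonic reads of either strand, so overlapping antisense transcripts cannot be told apart from a gene. The authors deposited FPKM per gene and library, which were used as deposited; tool versions are not given in the sources used here. They also deposited log2 fold changes and p-values of their own comparisons, which were not used. Counts were not analysed here. The reads behind low values were recovered from FPKM steps, with 94.7% to 98.1% of values from 175 genes within 0.1 read of a whole number.

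Groups were compared with limma 3.58.1 (R 4.3.3, eBayes with trend) on log2 of FPKM plus 0.5, a scale that understates changes of low genes, for the 9650 genes of at least 1 FPKM in at least 3 libraries. All 12 libraries entered 1 fit of 4 group means; two-sided p-values were adjusted over all genes tested (Benjamini-Hochberg, threshold 0.05). The 10 genes and the lists were chosen with earlier results of these data known. Other genes named are those past the threshold, up to 2 per list with the smallest p for β-thalassemic against WT Pro-E, and the 3 most similar to each member. Ccnd2, Ccnd3, Bcl2l1, Socs7, Tfrc, Osmr, Il6st and the marker genes were named after their values were seen. Alternatives were other pseudocounts, filters, scalings and prior variances, only the groups compared, a replicate block, and each library left out; the reads of the SOCS genes, correlations over 9 libraries, listed genes without WT replicate 1 and a paired fit of the 2 apoTf-treated groups were added after seeing the data. In the 2 apoTf-treated groups, same-numbered libraries deviated together from their group means (correlations 0.507, 0.253 and 0.461, against -0.514 to 0.143 for unlike numbers), so their numbers were taken as pairing them; no label gives a shared source. Libraries are pools of mice. Some items are not reported here. Gene positions are from GENCODE M21.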

Additional observations from a re-analysis of the deposited data

How the results depend on the processing

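For β-thalassemic against WT Pro-E, the number of members past the threshold (1, Osm) became 0 with a filter of at least 5 FPKM, which removed Osm and Cish, 0 with only the groups compared (Osm adjusted p = 0.249) and 0 with the replicate block (Osm adjusted p = 0.0575). Replicate numbers were taken as pairing the 2 apoTf-treated groups only. In the other pairs of groups the correlation of same-numbered libraries was not over 0.1 for each number, so for these the block result is given only here. In the paired fit of the apoTf-treated groups, 213 genes passed against 4, and the block changed no call of a member there. With each library left out in turn the count was 0 to 2. It was 0 without β-thalassemic replicate 1 or 2. Without WT replicate 1 it was 2 (Osm, and Cish, which entered the test only through its β-thalassemic libraries). For apoTf-treated against untreated β-thalassemic Pro-E it was 0 to 1, and for apoTf-treated against untreated WT Pro-E 0 to 1; in the other 3 comparisons it stayed at 0 in each alternative run. The count of all genes past the threshold in the same comparison, 25, was 8 with the filter of 5 FPKM, 9 with only the groups compared, 13 with the replicate block, 40 after quantile normalization and 3 to 90 with each library left out. For apoTf-treated against untreated β-thalassemic Pro-E, it was 3, and was 7 without the filter, 5 with only the groups compared and 1 with the block; for apoTf-treated against untreated WT Pro-E it was 0, and 446 without WT replicate 2.

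Directions that turned were near 0 or rested on WT replicate 1. Without it, Jak2 was at -0.35 (-0.35 to 0.40 with each library left out) for β-thalassemic against WT Pro-E, at 0.27 (-0.48 to 0.27) in the interaction and at -0.04 between apoTf-treated β-thalassemic and WT Pro-E. For apoTf-treated against untreated β-thalassemic Pro-E, Stat5a was at -0.042 without β-thalassemic replicate 1 and at -0.058 without apoTf-treated β-thalassemic replicate 1 (-0.058 to 0.25 with each library left out), and Stat5b at -0.0040 without β-thalassemic replicate 2 (-0.0040 to 0.24). Of 845 values of members over all alternatives, 820 kept direction and side of the threshold, 17 turned, 3 newly passed and 5 no longer passed; the cause was not tested. Depth limits Socs1 and Socs3, with 0 to 11 reads per library.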
